A study of Mus musculus with 36 samples.

Results

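The 37 genes described here are a list of DNA replication and S-phase genes, taken by symbol from a count table of 54842 mouse genes. All 37 passed the filter on low counts, which kept 18193 genes for testing. The list holds 10 genes of origin licensing, 6 of helicase activation, 11 of the polymerases, their clamp and its loader, 2 of Okazaki fragment processing, 3 of nucleotide supply, and 5 of single-strand binding and fork control. No measured value of these samples enters the rule that chose them, but the list was drawn up with earlier results of these data known.

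The genes were measured by poly(A) RNA sequencing in mouse embryonic stem cells, which were held in serum-free 2i medium (MEK and GSK3β inhibitors) with leukaemia inhibitory factor. Cells transfected with LiTEC, a construct for targeting endogenous condensates with light, were compared with wild-type (WT) cells. Cultures of both genotypes were given 30 min of blue light (lit) or were kept without it (dark), and RNA was taken 0, 1 or 4 h later. All 12 groups, WT and dark cells included, had first received doxycycline at 2 µg/ml for 2 days. Each group held 3 libraries, replicate 1 in batch 1 and replicates 2 and 3 in batch 2. The labels do not say whether LiTEC cells were 1 clone or a pool, nor whether each replicate was a culture of its own. The p-values below therefore rest on the spread among the deposited libraries, part of which may be technical. The transcript of the construct was not analysed here.

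DNA replication is prepared in G1, when the origin recognition complex, CDC6 and CDT1 load the MCM2-7 helicase onto DNA. At the start of S phase, CDC45 and the GINS complex turn the loaded helicase into an active one, and primase, the replicative polymerases and the sliding clamp PCNA then copy both strands. Many of these genes are targets of the E2F transcription factors. Mouse embryonic stem cells have a short G1 phase and spend much of their cycle in S phase, and they express the replication machinery at high levels.

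The promoters of the members are shown because E2F sites are what this gene class is known for. RefSeq entries (GRCm38.p6), searched over the 250 bases before the gene start, were matched for 31 of the 37 members. The E2F-type letters TTTCGCGC or TTTGGCGC, on either strand, occurred in 6 of these 31 promoters (19.4%), those of Mcm5, Mcm6, Orc1, Dtl, Pola1 and Rfc3. Over all 27025 genes of the table with an entry, 205 promoters (0.759%) held one of them. TTTCGCGC alone was in 4 of the 31 (12.9%) against 0.300% of all genes, and TTTGGCGC alone in 4 (12.9%) against 0.485%. The letters CCAAT, searched on both strands, were in 22 of the 31 (71.0%) against 37.5% of all genes. A match describes the letters of the window and is not a measured binding site. Below are the windows of Mcm5, Mcm6 and Pola1, the 3 members with a match whose window holds no annotated exon, written 5′ to 3′ along the gene's strand with the E2F-type letters in capitals. In Mcm5 a match of each kind overlaps, starting 153 and 149 bases before the RefSeq gene start. In Mcm6 the overlapping pair starts 110 and 106 bases before it, with a further match at 47. In the GENCODE annotation used for exons and coordinates, both genes begin further downstream, at 75109569 for Mcm5 and 128359664 for Mcm6. The distances therefore hold for the RefSeq start only.
Mcm5 (chr8:75109259-75109508, plus strand): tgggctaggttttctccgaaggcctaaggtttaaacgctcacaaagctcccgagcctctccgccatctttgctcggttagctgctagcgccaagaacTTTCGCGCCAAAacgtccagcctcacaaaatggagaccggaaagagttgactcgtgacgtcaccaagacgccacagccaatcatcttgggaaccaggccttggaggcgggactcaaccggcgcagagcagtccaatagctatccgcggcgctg
Mcm6 (chr1:128359706-128359955, minus strand): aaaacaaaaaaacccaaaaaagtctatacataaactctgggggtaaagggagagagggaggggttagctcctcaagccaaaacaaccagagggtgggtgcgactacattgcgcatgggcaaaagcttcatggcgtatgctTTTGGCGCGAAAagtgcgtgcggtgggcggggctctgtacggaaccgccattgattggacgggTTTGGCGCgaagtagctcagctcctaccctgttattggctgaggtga
Pola1 (chrX:93632156-93632405, minus strand): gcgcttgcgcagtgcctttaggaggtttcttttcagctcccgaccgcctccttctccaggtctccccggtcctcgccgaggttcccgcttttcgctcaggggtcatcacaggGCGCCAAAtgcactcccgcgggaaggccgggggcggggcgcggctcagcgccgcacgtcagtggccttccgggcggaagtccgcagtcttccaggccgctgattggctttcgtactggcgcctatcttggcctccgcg

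Library totals ran from 11132970 to 21842256 counts, and the summed level of the 37 members from 5672 to 6852 CPM (counts scaled by the TMM-adjusted library size to a sum of 1e6). The ribosomal RNA locus Gm26917 took 8.12% to 26.1% of the counts of a library. The highest share, 26.1%, belonged to dark WT replicate 3 at 4 h, and values without it are given beside the results that it moved most. Stem cell markers summed to 3290, 4034 and 4221 CPM (lowest, median and highest of 18 libraries) in LiTEC cells and to 3003, 4045 and 4488 CPM in WT cells. Single markers differed: all 9 were called between genotypes in the dark, 2 higher in LiTEC cells (Tfcp2l1 at a log2 fold change of 0.34 and Zfp42 at 0.30) and 7 lower, among them Tdgf1 at −0.57, Klf4 at −0.39 and Sox2 at −0.32. In lit cells 2 were higher and 4 lower. Over all tested genes 47.6% were called between genotypes in the dark and 43.4% in lit cells. With light in WT cells at 0 h, Sox2 and Tdgf1 were lower and none of the 9 higher, with a median of −0.20. The 7 fibroblast and feeder markers summed to 2.07 to 6.42 CPM in LiTEC cells and 4.35 to 9.58 CPM in WT cells, with Dcn at 0 in every LiTEC library and Lum at 0 in every WT library. Markers of primitive endoderm summed to 7.54 to 14.9 CPM in LiTEC cells and 4.99 to 11.3 CPM in WT cells, and those of mesendoderm to 5.06 to 10.5 CPM in LiTEC cells and 7.33 to 21.3 CPM in WT cells. The 3 neuroectoderm markers summed to 42.3 to 66.9 CPM in LiTEC cells and 30.3 to 56.8 CPM in WT cells. The part of the stem cell markers and of these other cell types in the results below was not tested.

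Set by length, the members spanned a wide range of levels. Length here is that of all annotated exons of a gene merged, which can exceed the length of a single transcript. The order therefore depends on the annotation as well as on the counts. Rfc2, at 63.3 CPM over 6303 bp, stands below Rfc4, at 28.6 CPM over 1533 bp. Rrm2, the small subunit of ribonucleotide reductase, had the highest mean over the 36 libraries at 121 CPM per kb of exon. Mcm5, a helicase subunit, followed at 117 CPM per kb, and the clamp gene Pcna at 107 CPM per kb. The other MCM2-7 genes came next, Mcm3 at 89.9, Mcm7 at 79.8, Mcm4 at 79.0, Mcm6 at 74.3 and Mcm2 at 61.9 CPM per kb, so that all 6 helicase subunits stood among the 8 highest members. The lowest were Gins3 at 6.95, Gins2 at 8.89, the clamp loader gene Rfc2 at 10.04 and the checkpoint mediator gene Clspn at 10.2 CPM per kb. Even Gins3 had at least 203 counts in every library. Mean levels of neighbours in this order, such as Rrm2 (SD 10.5 CPM per kb, n = 36) and Mcm5 (SD 9.32), differed by less than their spread over libraries.

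The members varied little between libraries. Their coefficient of variation over all 36 libraries had a median of 8.49%, against 10.7% over the 7243 tested genes at least as abundant as the lowest member. The clamp loader gene Rfc5 varied least (5.15%). Gins2 and Dtl varied most, both at 15.4%. Dtl encodes the substrate receptor of the ubiquitin ligase that destroys CDT1 in S phase.

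The first comparison is between genotypes, LiTEC minus WT, taken as the mean over the 3 times within dark cells and within lit cells. A member was called at an edgeR adjusted p below 0.05. In the dark 21 of the 37 members were called, 5 higher and 16 lower in LiTEC cells, where 47.6% of all tested genes were called (23.9% higher and 23.7% lower). In lit cells 22 members were called, 6 higher and 16 lower, against 43.4% of all tested genes (22.2% higher and 21.2% lower). The median log2 fold change of the members was −0.06 in the dark and −0.07 in lit cells, against 0.00 and −0.00 over all tested genes. In the 2 settings 18 members were called in the same direction, 4 higher and 14 lower, and 12 in neither. The lit and dark libraries are separate, but the cells of a genotype are the same in both. In bulk RNA, a smaller share of cells in S phase and less RNA per cell cannot be told apart.

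**Figure D1:**
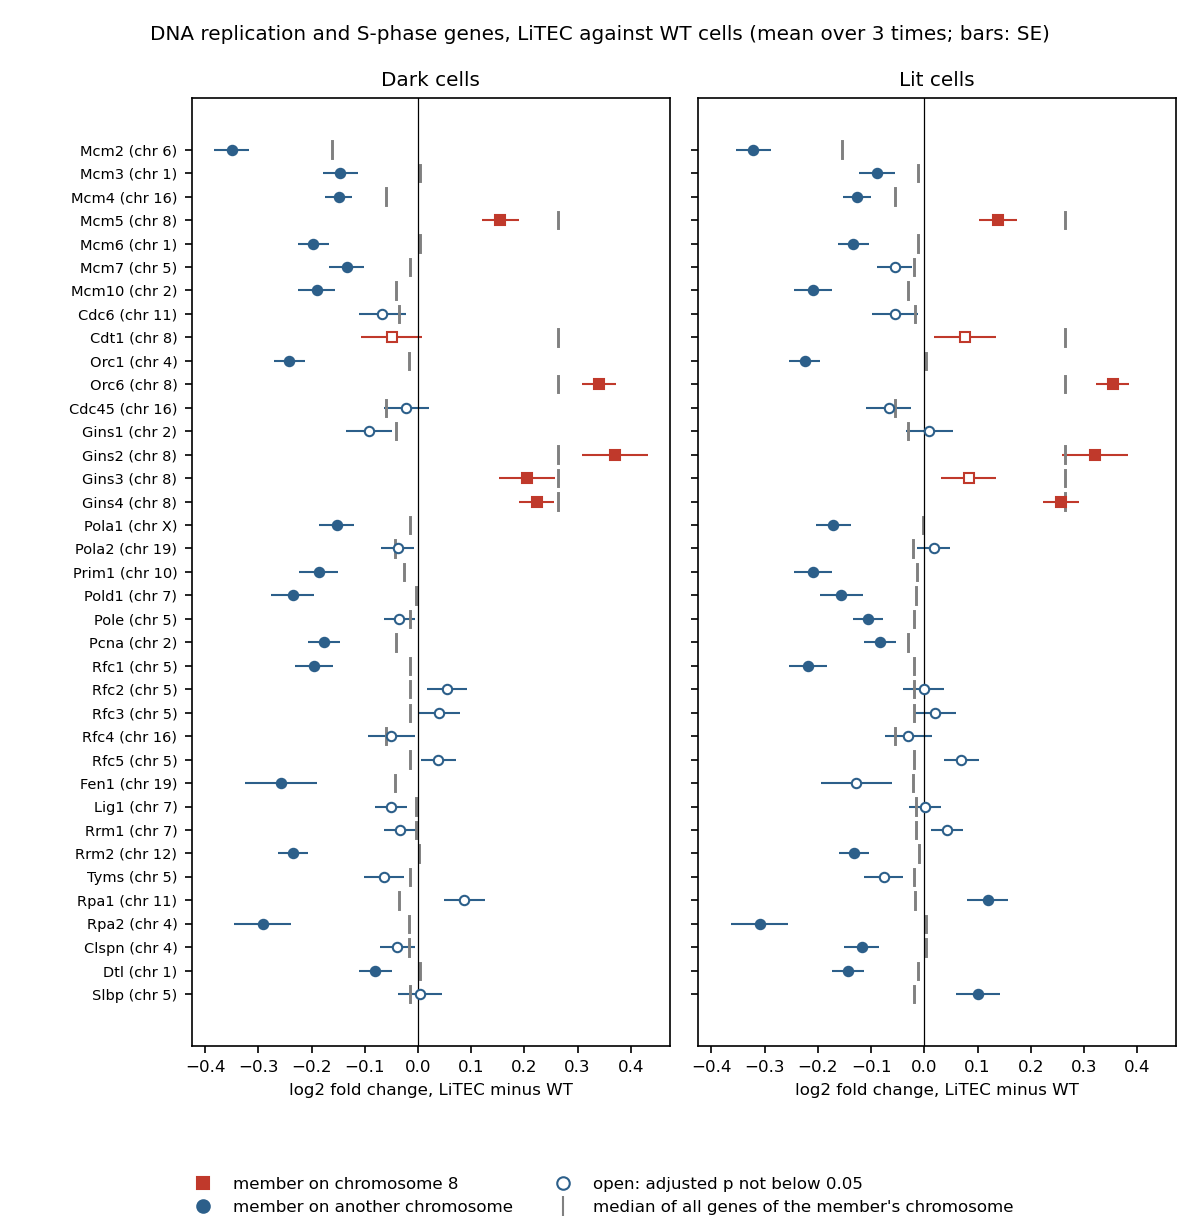
Log2 fold change of each of the 37 members, LiTEC minus WT, as the mean over 3 times in dark cells (left) and lit cells (right), with bars of 1 SE. Filled points passed an edgeR adjusted p of 0.05, squares mark the 6 members on chromosome 8, and grey ticks give the median of all genes on the member's chromosome. All 5 members that were higher in the dark are on chromosome 8, and the members on other chromosomes lie mostly to the left of 0.

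Of the 10 licensing genes, 2 were higher and 6 lower in LiTEC cells in the dark, and 2 were higher and 5 lower in lit cells. Mcm2, a helicase subunit gene on chromosome 6 (88883474 to 88898780, GRCm38, minus strand), had 339, 379 and 413 CPM (lowest, median and highest of 18 libraries) in LiTEC cells, against 445, 480 and 516 CPM in WT cells. Its ranges did not overlap, which was so for 3.59% of all tested genes. The log2 fold change of Mcm2 was −0.35 ± 0.03 in the dark (SE; edgeR adjusted p = 1.60e-10) and −0.32 ± 0.03 in lit cells.

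Orc6, a subunit gene of the origin recognition complex on chromosome 8 (85299632 to 85308278, plus strand), went the other way. It had 74.0, 84.9 and 91.9 CPM in LiTEC cells, against 61.7, 65.8 and 72.2 CPM in WT cells, without overlap. Its log2 fold change was 0.34 ± 0.03 in the dark and 0.35 ± 0.03 in lit cells (edgeR adjusted p = 3.61e-11 in lit cells). Orc1, the ATPase subunit gene of the same complex on chromosome 4, had 97.1, 117 and 131 CPM in LiTEC cells and 114, 139 and 154 CPM in WT cells. Its ranges overlapped, and its log2 fold change was −0.24 ± 0.03 in the dark and −0.22 ± 0.03 in lit cells. Mcm5 had 437, 494 and 541 CPM in LiTEC cells against 367, 449 and 488 CPM in WT cells, and it was higher by 0.15 ± 0.04 in the dark and 0.14 ± 0.04 in lit cells. Mcm6 had 300.4, 327 and 364 CPM in LiTEC cells against 332, 367 and 394 CPM in WT cells, and differed by −0.20 ± 0.03 in the dark and −0.13 ± 0.03 in lit cells.

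The helicase subunit genes thus did not all move in 1 direction in LiTEC cells. Mcm2, Mcm3, Mcm4 and Mcm6 were lower in both light settings, and Mcm5 was higher in both. Mcm7 passed in the dark and not in lit cells (−0.13 ± 0.03, and −0.06 ± 0.03 in lit cells). Mcm5 lies on chromosome 8, whose genes as a whole were higher, as set out below. Relative to that chromosome's median, Mcm5 was at −0.11 in the dark and −0.13 in lit cells. Relative to the medians of their own chromosomes in the dark, Mcm2, Mcm3, Mcm4, Mcm6 and Mcm7 were at −0.19, −0.15, −0.09, −0.20 and −0.12. The lit call of Mcm3 (−0.09) was kept in 10 of 18 fits with 1 library left out (−0.11 to −0.07), and was lost with no batch term and in batch 2 alone. The difference between the dark and lit values of Mcm7 was not tested. The loading factor genes Cdc6 (−0.07 ± 0.04 in the dark and −0.06 ± 0.04 in lit cells) and Cdt1 (−0.05 ± 0.06 and 0.08 ± 0.06) were not called in either. Without dark WT replicate 3 at 4 h, the library with most Gm26917, the dark value was −0.01 for Cdc6 and 0.02 for Cdt1.

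Of the 6 helicase activation genes, 3 were higher and 1 lower in LiTEC cells in the dark, and 2 were higher and 1 lower in lit cells. Gins4, a GINS subunit gene on chromosome 8 (23226616 to 23237659, minus strand), had 67.1, 72.1 and 80.6 CPM in LiTEC cells against 54.9, 60.9 and 66.9 CPM in WT cells, without overlap. Its log2 fold change was 0.22 ± 0.03 in the dark and 0.26 ± 0.03 in lit cells (edgeR adjusted p = 1.26e-07 in lit cells). Gins2 had 33.9, 41.7 and 48.4 CPM in LiTEC cells and 26.6, 31.6 and 38.2 CPM in WT cells, with overlapping ranges, and differed by 0.37 ± 0.06 in the dark and 0.32 ± 0.06 in lit cells. In the annotation, exons of Gse1 on the opposite strand cover 67.3% of its exon length, and the strand setting of the counting is not given in the sources used here. Its value is therefore uncertain. Gins3 was higher in the dark (0.21 ± 0.05) and was not called in lit cells (0.08 ± 0.05). Gins1, the GINS gene on chromosome 2, was not called in either (−0.09 ± 0.04 in the dark and 0.01 ± 0.04 in lit cells). Mcm10, a helicase-associated initiation factor gene on chromosome 2, was lower, at −0.19 ± 0.04 in the dark and −0.21 ± 0.04 in lit cells.

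**Figure D2:**
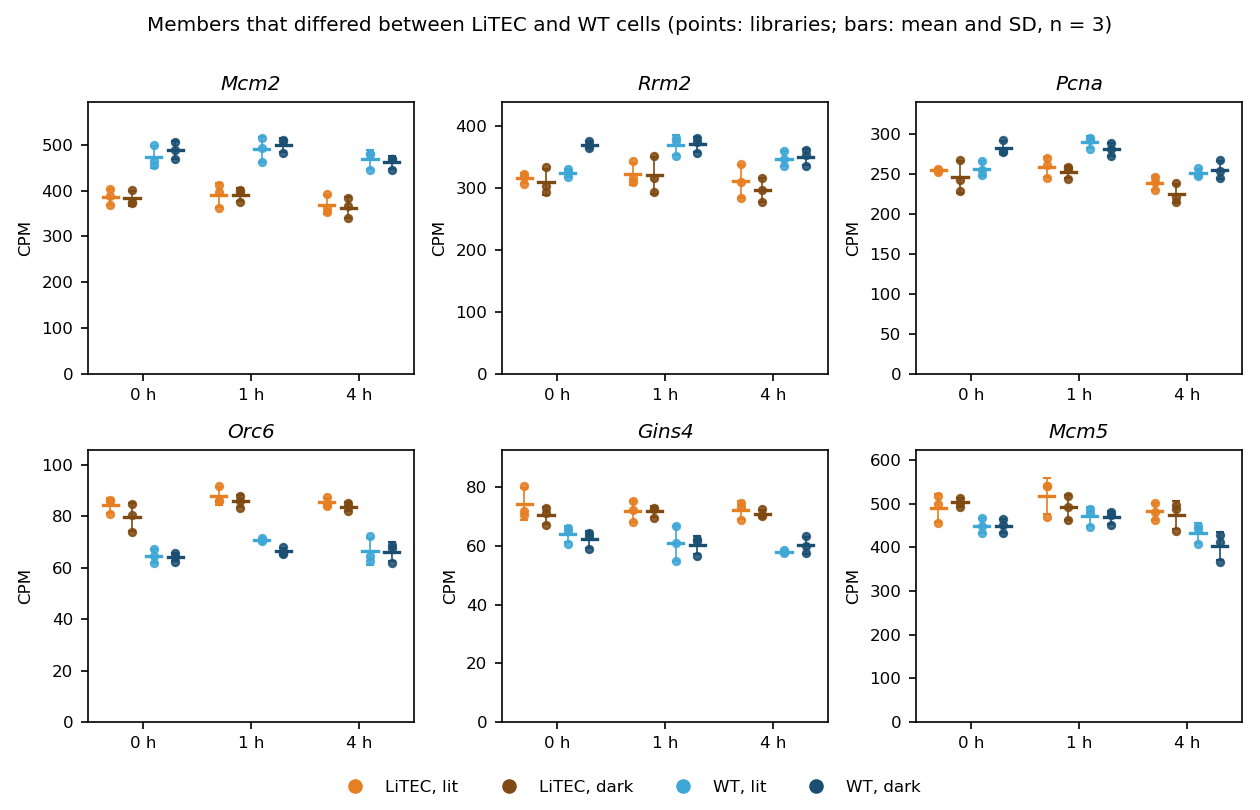
Level of 6 members in each library (points, CPM from 0) with the mean and SD of each group of 3, for lit LiTEC, dark LiTEC, lit WT and dark WT cells at 0, 1 and 4 h. Mcm2, Rrm2 and Pcna lie lower in LiTEC cells and Orc6, Gins4 and Mcm5 higher, and for Mcm2, Orc6 and Gins4 the 18 LiTEC libraries do not overlap the 18 WT libraries.

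No polymerase, clamp or clamp loader gene was higher in LiTEC cells. Of these 11 genes, 5 were lower in the dark and 6 in lit cells. Rfc1, the large clamp loader subunit gene on chromosome 5, had 157, 190.4 and 208 CPM in LiTEC cells and 173, 220.5 and 237 CPM in WT cells. Its log2 fold change was −0.20 ± 0.04 in the dark and −0.22 ± 0.04 in lit cells (edgeR adjusted p = 4.66e-06 in lit cells). The other 4 loader genes, Rfc2 to Rfc5, were not called, with values between −0.05 and 0.07, except that Rfc5 passed in lit cells with the replicate number as a block (0.07; edgeR adjusted p = 0.0324). Pcna had 215, 245 and 269.9 CPM in LiTEC cells against 245, 269 and 295 CPM in WT cells. It was lower, at −0.18 ± 0.03 in the dark and −0.08 ± 0.03 in lit cells, where the call was lost without LiTEC replicate 2, WT replicate 1 or WT replicate 3 at 1 h (−0.07 to −0.08), with no expression filter and in batch 2 alone. Pold1, the catalytic subunit gene of polymerase delta, was lower, at −0.24 ± 0.04 in the dark, and so was the primase gene Prim1, at −0.21 ± 0.04 in lit cells. Pola1, the catalytic subunit gene of polymerase alpha on the X chromosome, differed by −0.15 ± 0.03 in the dark and −0.17 ± 0.03 in lit cells, and its partner Pola2 was not called.

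In nucleotide supply, Rrm2 had 278, 313 and 352 CPM in LiTEC cells against 317, 358 and 381 CPM in WT cells. Its log2 fold change was −0.24 ± 0.03 in the dark (edgeR adjusted p = 1.86e-08) and −0.13 ± 0.03 in lit cells. The large subunit gene Rrm1 (−0.03 ± 0.03 and 0.04 ± 0.03) and the thymidylate synthase gene Tyms (−0.06 ± 0.04 and −0.08 ± 0.04) were not called in either. Tyms was called in the dark without dark WT replicate 3 at 4 h (−0.09), and in lit cells without replicate 3 of LiTEC cells at 0 h (−0.09).

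Fen1, the flap endonuclease gene of Okazaki fragment processing, was lower in the dark (−0.26 ± 0.07) and not called in lit cells (−0.13 ± 0.07), where it passed with the replicate block (edgeR adjusted p = 0.0103). Exons of Gm10143 on the opposite strand cover 78.8% of its exon length, so its value is uncertain in the same way as that of Gins2. The ligase gene Lig1 was not called.

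Among the fork genes, Rpa2 was lower, at −0.29 ± 0.05 in the dark and −0.31 ± 0.05 in lit cells, while Rpa1 was not called in the dark (0.09 ± 0.04) and was higher in lit cells (0.12 ± 0.04). The 2 genes encode subunits of the same single-strand binding protein. The lit call of Rpa1 was lost without WT replicate 2 at 0 h (0.09), with no batch term and in batch 2 alone. With the replicate block it was called in the dark too (edgeR adjusted p = 0.00855), as it was without dark WT replicate 3 at 4 h (0.12). Dtl was lower, at −0.08 ± 0.03 in the dark, a call that was kept in 9 of 18 fits with 1 library left out and was lost without dark WT replicate 3 at 4 h (−0.07), and at −0.14 ± 0.03 in lit cells, kept in all 18. Clspn was not called in the dark (−0.04 ± 0.03) and was lower in lit cells (−0.12 ± 0.03). By time, the lit value of Clspn was −0.30 at 0 h, −0.04 at 1 h and −0.02 at 4 h (SE 0.06 each). That of Dtl was −0.25, −0.09 and −0.09 (SE 0.05 each), so both lit means lean on the 0 h libraries. Whether the times differed was not tested. Slbp, the histone mRNA binding protein gene, had 89.5, 112 and 121 CPM in LiTEC cells and 88.3, 105 and 134 CPM in WT cells. It was not called in the dark (0.00 ± 0.04), and its call in lit cells (0.10 ± 0.04; edgeR adjusted p = 0.0477) was kept in 5 of 18 fits with 1 library left out, whose values ran from 0.08 to 0.12, and in 1 of 6 other fits.

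The members were also set by their place in the genome. The 6 members on chromosome 8 are Mcm5, Cdt1, Orc6, Gins2, Gins3 and Gins4. In the dark 5 of these 6 were higher and none lower, whereas of the other 31 members none was higher and 16 were lower. In lit cells 4 of the 6 were higher, and of the other 31 members 2 were higher and 16 lower. The 2, Rpa1 and Slbp, were both lost with no batch term and in batch 2 alone. The split went beyond the list. Over the 781 genes of chromosome 8 whose mean reached 1 CPM, the median log2 fold change was 0.26 in the dark and 0.27 in lit cells, the highest of 20 chromosomes, and 86.0% of these genes had a value above 0 in the dark. In the dark 68% of these genes were called higher and 4.74% lower, and in lit cells 67.6% and 2.94%. Whether the counts of the 6 members differed from these shares was not tested. The shift was seen along the whole chromosome, with medians between 0.24 and 0.30 in windows of 30 Mb in the dark. In the 6 pairs of groups matched for light and time, its median ran from 0.24 to 0.28, against −0.03 to −0.02 over all other chromosomes.

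Read against that shift, the chromosome 8 members differ among themselves. Relative to the chromosome's dark median, Orc6 was at 0.08 and Gins2 at 0.11, Gins4 at −0.04 and Gins3 at −0.06, Mcm5 at −0.11 and Cdt1 at −0.31. The dark value of Cdt1 was −0.05 with all libraries and 0.02 without dark WT replicate 3 at 4 h, where Cdt1 stood at 245 CPM. Mcm2 lies on chromosome 6, whose median over 679 genes was −0.16 in the dark and −0.15 in lit cells, the lowest of the 20, and relative to that median Mcm2 was at −0.19 in the dark. In the window of 60 to 90 Mb that holds Mcm2 the dark median was −0.20, while in the first 30 Mb of that chromosome it was 0.08. The medians of the remaining chromosomes lay between −0.06 and 0.01 in the dark. The part of these chromosome-wide shifts in the members' differences was not tested.

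**Figure D3:**
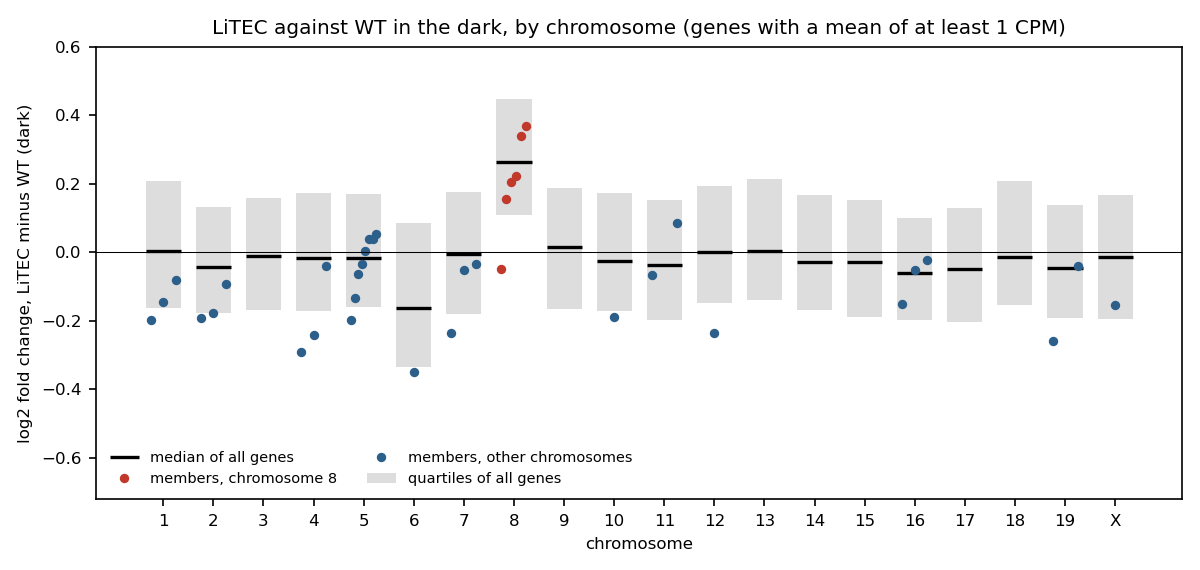
Log2 fold change LiTEC minus WT in dark cells by chromosome, with the median (black line) and quartiles (grey box) of all genes at a mean of 1 CPM or more, and the members as points. Chromosome 8 has the highest median (0.26) and carries the 5 higher members, and chromosome 6, with Mcm2, has the lowest (−0.16).

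Over the 6 pairs of groups matched for light and time, 18 members were lower in LiTEC cells in every pair and 6 were higher in every pair, while the other 13 had values of both signs. A single sign in all 6 pairs was thus seen in 64.9% of the members, against 49.0% of all tested genes. By direction, 48.6% of the members were lower in every pair, against 24.4% of all tested genes. Higher in every pair were 16.2% of the members, against 24.6% of all tested genes. Mcm2 ran from −0.36 to −0.29 over the 6 pairs and Orc6 from 0.31 to 0.39, whereas Cdt1 ran from −0.20 to 0.22. Without any 1 library the number called ran from 20 to 23 in the dark, and without dark WT replicate 3 at 4 h it was 23, with Gins1 (−0.11), Tyms (−0.09) and Rpa1 (0.12) called and Dtl not.

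The second comparison asks how light alone moved these genes. In LiTEC cells no member was called at any time by edgeR or by DESeq2. At 0 h, 2 members had an unadjusted p below 0.05 by edgeR, beside 10.1% of all genes, and 0.934% of all genes were called. At 1 h there were 3, beside 6.26% of all genes, and 0.115% of all genes were called. At 4 h there were none, beside 6.35% of all genes, and 0.011% of all genes were called. In WT cells 3 members were called at 0 h, 1 higher and 2 lower, against 2.86% of all genes (1.66% higher and 1.2% lower). None was called in WT cells at 1 h or at 4 h, by edgeR or by DESeq2. At 1 h, 4 members had an unadjusted p below 0.05 by edgeR, beside 7.07% of all genes, and 0.286% of all genes were called. At 4 h, 2 members had one, beside 8.16% of all genes, and 0 of all genes were called. The median of the members was between −0.00 and 0.03 in these 6 comparisons.

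The 3 WT genes called at 0 h were Rrm2, Gins1 and Gins3. Rrm2 had 317, 325 and 331 CPM in lit WT cells, against 365, 377 and 370.4 CPM in dark WT cells. Every lit library was lower than every dark one, and the log2 fold change was −0.19 ± 0.05 (edgeR adjusted p = 0.0227). How many of all genes separate 2 groups of 3 libraries in this way was not counted, here or below. In LiTEC cells at 0 h, Rrm2 had 307, 317 and 323 CPM in lit libraries and 293, 303 and 333 CPM in dark ones, with overlap and a value of 0.03 ± 0.05. The difference of the light effects, LiTEC minus WT, was 0.22 ± 0.07 and did not pass (edgeR adjusted p = 0.680). The WT call was lost without lit replicate 2 (−0.18) or dark replicate 1 (−0.17).

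Gins1 had 29.2, 35.99 and 34.2 CPM in lit WT cells at 0 h, against 39.5, 41.6 and 39.4 CPM in dark ones, without overlap (−0.28 ± 0.08; edgeR adjusted p = 0.0287). Gins3 had 20.9, 23.0 and 22.5 CPM in lit WT cells, against 16.4, 18.3 and 17.2 CPM in dark ones, again without overlap (0.36 ± 0.09; edgeR adjusted p = 0.0200). The 2 genes encode subunits of the same GINS complex. Leaving out any 1 of the 6 libraries ended the call of Gins3, with values from 0.32 to 0.36 and an edgeR adjusted p of up to 0.119, and the call of Gins1 was kept in 2 of 6 such fits (−0.33 to −0.24). Within batches, the WT values at 0 h were −0.20 in batch 1 and −0.19 in batch 2 for Rrm2, −0.43 and −0.22 for Gins1, and 0.34 and 0.35 for Gins3.

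**Figure D4:**
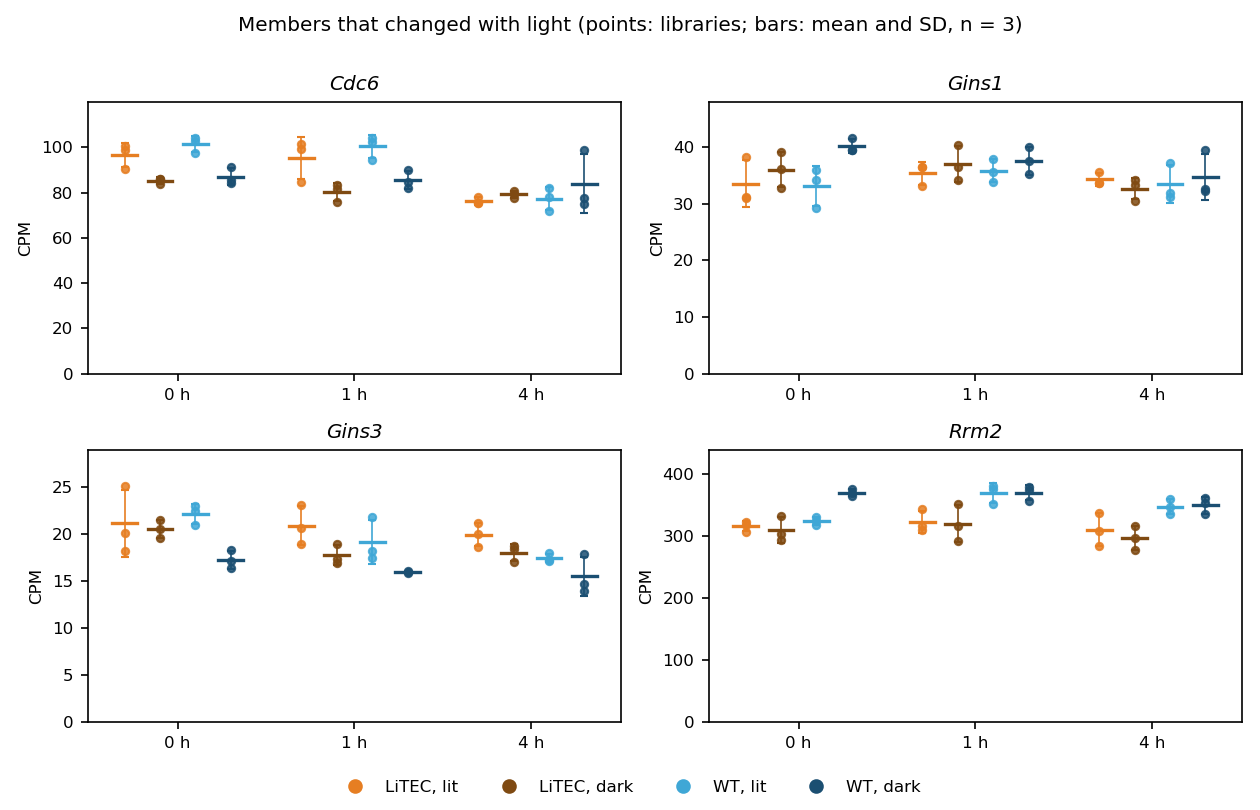
Level of Cdc6, Gins1, Gins3 and Rrm2 in each library (points, CPM from 0) with the mean and SD of each group of 3, for lit LiTEC, dark LiTEC, lit WT and dark WT cells at 0, 1 and 4 h. Cdc6 is higher in lit than in dark libraries of both genotypes at 0 and 1 h and not at 4 h, and Rrm2 is lower in lit than in dark WT libraries at 0 h.

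Cdc6, the gene of a helicase loading factor, rose with light at 0 and 1 h in the mean of both genotypes. At 0 h it had 100.4, 90.4 and 99.0 CPM in lit LiTEC cells against 86.2, 86.1 and 83.7 CPM in dark LiTEC cells. In WT cells at 0 h it had 104, 97.4 and 103 CPM in lit libraries against 85.7, 84.2 and 91.5 CPM in dark ones. In each genotype every lit library was above every dark one, a separation whose share over all genes was not counted. No single genotype passed (0.18 ± 0.08 in LiTEC cells and 0.22 ± 0.08 in WT cells), but the mean of both did, at 0.20 ± 0.05 (edgeR adjusted p = 0.0194). With the replicate number as a block, Cdc6 was called in WT cells alone (0.22; edgeR adjusted p = 0.0200).

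At 1 h Cdc6 had 99.4, 84.7 and 102 CPM in lit LiTEC cells against 83.4, 75.9 and 81.6 CPM in dark ones. In WT cells it had 102, 94.6 and 104 CPM in lit libraries against 89.9, 82.1 and 84.7 CPM in dark ones. The groups did not overlap in either genotype, and the mean effect was 0.24 ± 0.05 (edgeR adjusted p = 0.0126). At 4 h the lit libraries were not higher, with 75.2, 75.3 and 78.3 CPM in lit LiTEC cells against 79.4, 77.8 and 80.7 CPM in dark ones, and 78.1, 72.1 and 82.1 CPM in lit WT cells against 77.7, 75.1 and 99.0 CPM in dark ones. The dark WT library at 99.0 CPM is the one with most Gm26917. The value of Cdc6 in WT cells at 4 h was −0.11 with it and 0.03 without it, and neither was called. The change of the Cdc6 effect over time was not tested. The mean effect of Cdc6 was 0.25 in batch 1 and 0.16 in batch 2 at 0 h, and 0.22 and 0.25 at 1 h. Its call at 0 h was kept in 6 of 12 fits with 1 library left out (0.18 to 0.21). Its call at 1 h was kept in 10 of 12, and was lost without lit LiTEC replicate 3 (0.21) or lit WT replicate 3 (0.22).

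In this mean of both genotypes 2 members were called at 0 h, against 5.37% of all genes, Cdc6 and Gins1 (−0.20 ± 0.05; edgeR adjusted p = 0.0235). At 1 h 2 were called, against 1.14% of all genes, Cdc6 and Gins3 (0.25 ± 0.06; edgeR adjusted p = 0.0421). At 1 h Gins3 had 18.9, 20.7 and 23.1 CPM in lit LiTEC cells against 17.4, 17.0 and 18.96 CPM in dark ones, with overlap. In WT cells it had 17.4, 18.2 and 21.9 CPM in lit libraries against 15.9, 16.1 and 15.9 CPM in dark ones, without overlap. The Gins1 call was kept in 8 of 12 fits with 1 library left out (−0.24 to −0.17), and that of Gins3 in 3 of 12 (0.21 to 0.28). With the replicate block, Gins3 was also called at 0 h (0.20; edgeR adjusted p = 0.0382), and 4 members were called at 1 h, the additional ones being Mcm10 (0.12; edgeR adjusted p = 0.0338) and the polymerase epsilon gene Pole (−0.13; edgeR adjusted p = 0.0255). At 4 h none was called by edgeR or DESeq2, where edgeR called 0.275% of all genes. There 4 members had an unadjusted p below 0.05 by edgeR, beside 10.7% of all genes. These means use the same libraries as the comparisons within a genotype.

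The light effect itself was not shown to differ between genotypes for any member. The test of LiTEC minus WT called none of the 37 at 0, 1 or 4 h by edgeR or DESeq2. By edgeR, 0.022%, 0% and 0% of all genes were called. An unadjusted p below 0.05 by edgeR was seen for 4, 0 and 0 members, beside 6.21%, 2.08% and 3.61% of all genes. The standard errors of these differences lay between 0.06 and 0.16 on the log2 scale at each time.

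The remaining members given for every light comparison were not called in any of the 6. Over these comparisons Mcm2 ran from −0.04 to 0.02 (SE 0.06), Mcm5 from −0.04 to 0.11 (SE 0.06) and Cdt1 from −0.12 to 0.09 (SE 0.10). Orc1 ran from 0.00 to 0.14 (SE 0.05), Pcna from −0.14 to 0.08 (SE 0.05), Tyms from −0.07 to 0.05 (SE 0.06) and Clspn from −0.10 to 0.17 (SE 0.06). Slbp ran from −0.25 to 0.04 (SE 0.07), and its lowest value was in WT cells at 4 h, with 88.3, 97.9 and 89.9 CPM in lit libraries against 92.9, 103 and 134 CPM in dark ones. The dark library at 134 CPM is the one with most Gm26917, and without it the value of Slbp was −0.10. Without it 12 of the 37 members had the other sign in this comparison, among them Cdt1 (0.09 without it and −0.11 with it) and Tyms (−0.04 and 0.05), and Mcm5 was at 0.05 in place of 0.11. No member was called in WT cells at 4 h either way.

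The third comparison follows the dark cells over time. Dtl moved at both later times. At 0, 1 and 4 h, dark LiTEC cells had 174, 161 and 175 CPM, then 195, 209 and 221 CPM, then 156, 146 and 149.9 CPM of Dtl. Dark WT cells had 191, 174 and 188 CPM at 0 h, 222, 209 and 219 CPM at 1 h, and 164, 152 and 157 CPM at 4 h. In both genotypes the 1 h libraries lay above those of the other times and the 4 h libraries below them, without overlap. Lit cells, which share no library with the dark ones, had 164, 155 and 176 CPM, then 206, 213 and 216 CPM, then 148, 141 and 148 CPM in LiTEC, and 193, 195 and 204 CPM, then 225, 226 and 224 CPM, then 160, 153 and 154 CPM in WT. The same order of times held there.

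At 1 h minus 0 h, Dtl was called in dark LiTEC cells (0.29 ± 0.05; edgeR adjusted p = 0.00816), the only member against 0.264% of all genes. The value was 0.16 in batch 1 and 0.35 in batch 2. The call was lost without replicate 2 at 0 h (0.25), replicate 2 at 1 h (0.28) or replicate 3 at 1 h (0.25). In dark WT cells at 1 h, 3 members and 6.91% of all genes had an unadjusted p below 0.05 by edgeR. No member was called there, against 0.0605% of all genes, and Dtl stood at 0.23. With the replicate number as a block, and by DESeq2, Dtl was called there too (0.23, with an edgeR adjusted p of 0.0132 with the block). Whether the times differed between genotypes was not tested.

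**Figure D5:**
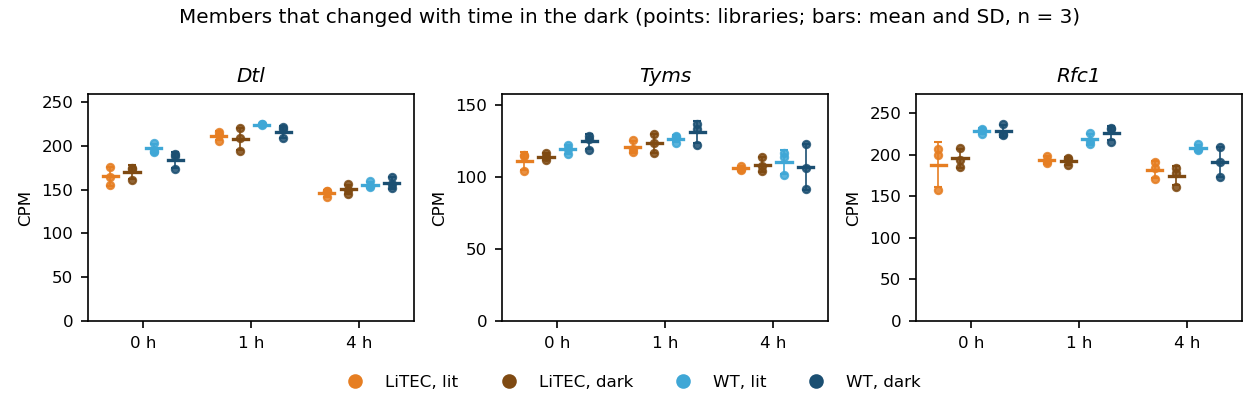
Level of Dtl, Tyms and Rfc1 in each library (points, CPM from 0) with the mean and SD of each group of 3, for lit LiTEC, dark LiTEC, lit WT and dark WT cells at 0, 1 and 4 h. Dtl is highest at 1 h and lowest at 4 h in all 4 kinds of cells, and 1 dark WT library at 4 h stands low for Tyms (91.4 CPM) and Rfc1 (173 CPM).

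At 4 h minus 0 h, 3 members were lower in dark WT cells and none higher, against 8.31% of all genes called (4.35% higher and 3.96% lower). Dtl was lower, at −0.23 ± 0.05 (edgeR adjusted p = 0.00711). Rfc1 had 191, 209 and 173 CPM at 4 h against 225, 224 and 237 CPM at 0 h, a value of −0.26 ± 0.06 (edgeR adjusted p = 0.00726). Tyms had 123, 106 and 91.4 CPM at 4 h against 129, 119 and 126 CPM at 0 h, a value of −0.22 ± 0.06 (edgeR adjusted p = 0.0257). Rfc1 did not overlap between the times and Tyms did. Both were lowest in replicate 3 at 4 h, the library with most Gm26917, and without it Dtl alone was called, with Rfc1 at −0.18 and Tyms at −0.13. Tyms was also lost without replicate 1 (−0.22) or replicate 3 (−0.20) at 0 h. Within batches Tyms was at −0.07 in batch 1 and −0.32 in batch 2.

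With the replicate number as a block 8 members were lower in dark WT cells at 4 h, the additional ones being Mcm5, Mcm10, Gins1, Pcna and Clspn (−0.21 to −0.15), and DESeq2 called 7. In dark LiTEC cells at 4 h, 6 members and 15% of all genes had an unadjusted p below 0.05 by edgeR. No member was called there in the main edgeR fit, against 2.18% of all genes. The block and DESeq2 each called Dtl (−0.17 with the block, with an edgeR adjusted p of 0.0208). The light comparison of WT cells at 0 h and both WT time comparisons share the dark WT libraries of 0 h, so they are not independent of each other.

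Other genes of the pathway were counted in the same fits. Of 50 further replication genes, all tested, 7 were higher and 26 lower in LiTEC cells in the dark, and 8 higher and 23 lower in lit cells, beside the 47.6% and 43.4% of all genes that were called. Esco2, the cohesin acetyltransferase gene active in S phase, differed by −0.54 ± 0.04 in the dark and −0.52 ± 0.04 in lit cells. The fork protection gene Tipin (−0.31 ± 0.04), the origin recognition gene Orc5 (−0.28 ± 0.03) and Uhrf1, a gene of maintenance DNA methylation (−0.29 ± 0.04), were also lower in the dark. The 3 genes of this list on chromosome 8 are Rnaseh2a, Chtf8 and Asf1b, of which 2 were higher in the dark and 3 in lit cells. With light, Orc4 rose in WT cells at 0 h (0.29 ± 0.06; edgeR adjusted p = 0.00379) as the only one of the 50, where 1.66% of all genes were higher. From 0 to 4 h in dark WT cells 8 of the 50 were lower and none higher, among them Fam111a (−0.64 ± 0.10) and Ticrr (−0.36 ± 0.07), beside the 3.96% of all genes that were lower. Without dark WT replicate 3 at 4 h, 6 of the 50 and 1.51% of all genes were lower, with Fam111a at −0.53 and Ticrr at −0.38.

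Of 23 E2F and S-phase entry regulators, 7 were higher and 9 lower in LiTEC cells in the dark, and 8 higher and 6 lower in lit cells. For this list and the next 2, the shares over all tested genes were 23.9% higher and 23.7% lower in the dark. In lit cells they were 22.2% and 21.2%. The cyclin E gene Ccne1 (−0.48 ± 0.06) and the repressor gene E2f8 (−0.39 ± 0.05) were lower in the dark, and Ddb1, which encodes an adaptor of the ligase that uses the Dtl product, was higher (0.27 ± 0.03). With light, the pocket protein gene Rbl2 rose in WT cells at 0 h (0.36 ± 0.10; edgeR adjusted p = 0.0491). Of 12 replication checkpoint genes, 2 were higher and 8 lower in the dark and 3 higher and 8 lower in lit cells, with the kinase gene Chek1 at −0.25 ± 0.03 and the chromosome 8 gene Rfwd3 at 0.29 ± 0.03 in the dark. Of 17 G2/M genes 1 was higher and 3 lower in each light setting, smaller shares than over all tested genes. The spindle checkpoint gene Bub1b was at −0.27 ± 0.03 in the dark. The summed level of the 17 was 3819 to 4229 CPM in LiTEC cells and 3679 to 4350 CPM in WT cells. In WT cells at 0 h light lowered 2 of the 17, Ccnb1, which encodes cyclin B1 of mitosis (−0.35 ± 0.06), and its kinase partner gene Cdk1 (−0.29 ± 0.06), beside the 1.2% of all genes that were lower.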

How the data were processed

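RNA was measured in 36 libraries, 3 for each of 12 groups, grouped by their titles. The deposited values are raw, whole-number read counts for each gene. Per the submitters' processing notes, featureCounts and mm10 (GRCm38) were among the tools and builds. Not given in the sources used here were the aligner, the strand setting of the counting and all versions. Per the labels' protocols, a stranded poly(A) kit was used. As the strand setting of the counting is not given, reads of genes that overlap on opposite strands may still be shared. Of the 37 members, 12 share exon bases with such a gene. The deposited name map gave a symbol for every gene. Coordinates and exon lengths are from GENCODE M21, promoters from RefSeq.

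Genes were kept by edgeR's filterByExpr (minimum count 10), which left 18193, of which 18184 had a chromosome. One model covered the 36 libraries, with a term per group and a term for batch (edgeR 4.0.16, limma 3.58.1, R 4.3.3; TMM scaling; quasi-likelihood test; 23 residual degrees of freedom). P-values were Benjamini-Hochberg adjusted over all tested genes, with calls below 0.05. SE is the size of a log2 fold change divided by the square root of F. There were 18 comparisons, each over all tested genes. The fit was tested on simulated data. Differences within batch 1, which has 1 library a group, are of log2(CPM + 0.5) and have no test. Alternatives were no batch term, RLE size factors, a replicate block, batch 2 alone, DESeq2 1.42.0, no expression filter and leaving out each library. Batch 1 alone, the 6 matched pairs of groups, the values by chromosome and the gene lists without dark WT replicate 3 at 4 h were added after seeing the data.

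Same-numbered libraries deviated together from their group means: over 66 pairs of groups for each number, the correlations ran from 0.388 to 0.654, 0.333 to 0.530 and 0.115 to 0.501 for replicates 1, 2 and 3. The replicate numbers were therefore taken to pair the libraries in the replicate block, which is 1 of the alternatives. The main fit has a term for batch and none for the replicate number, so its calls, SEs and p-values do not use that pairing in full. Blocked values are given where they change a call. No 2 replicates agreed within sampling noise.

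The members and gene lists were chosen with earlier results of these data known. Members named are those called, up to 12 a comparison or otherwise the 6 higher and 6 lower with the largest change, plus Mcm2, Mcm5, Cdc6, Cdt1, Orc1, Pcna, Rrm2, Tyms, Slbp and Clspn; some others are named to complete a group.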

Additional observations from a re-analysis of the deposited data

How the results depend on the processing

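The numbers of members called between genotypes changed little: 20 to 22 in the dark and 16 to 24 in lit cells over the 6 other fits, and 20 to 23 and 19 to 22 with 1 library left out. Light and time calls were few and unsteady. For light in WT cells at 0 h (3 members called), no batch term, no expression filter and batch 2 alone gave 0 each, the replicate block gave 4, and leaving out 1 library gave 0 to 2. For the mean of both genotypes, 2 called at 0 h became 1 with no batch term, 1 with no expression filter and 0 in batch 2 alone (0 to 3 with 1 library left out), and 2 called at 1 h became 1, 1 and 0 under the same settings, 4 with the replicate block and 0 to 3 with 1 library left out. For dark LiTEC cells, 1 call at 1 h became 0 in batch 2 alone (0 to 1 with 1 library left out), and 0 at 4 h became 1 with the block and with DESeq2. For dark WT cells, 0 at 1 h became 1 with the block and with DESeq2, and 3 at 4 h became 8 with the block, 7 with DESeq2 and 1 to 6 with 1 library left out (6 without replicate 2 at 4 h). The pairing by replicate number moved no other count by over 1.5 times. Batch 2 alone has fewer libraries; the cause of the other changes was not tested. No value of a called member changed sign under any setting run. With 3 libraries a group, light effects of about 3 standard errors could miss the threshold, as did Cdc6 in LiTEC cells at 1 h (0.25 ± 0.08). Slbp in WT cells at 4 h (−0.25 ± 0.07) missed it too, but its value rested on dark WT replicate 3 at 4 h and was −0.10 ± 0.06 without that library.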
